A study of Rattus norvegicus with 6 samples.

Results

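Transcripts of 8 structural proteins of central and peripheral myelin, Mbp, Mog, Mag, Mobp, Cnp, Mal, Cldn11 and Pmp22, were compared between chronically contused and uninjured rat spinal cord. They were chosen by gene symbol: every probe set (a group of short oligonucleotides for 1 transcript) that the array's annotation ties to exactly 1 of these symbols was taken. Of the 8 genes, 7 had such a probe set, with 14 probe sets in all, among 4736 singly named genes on the array. Cldn11 had none and is not analysed here.

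Total RNA came from the cord at about thoracic segment 8. One group of 3 arrays held the epicenter, the tissue at the point of impact, 35 days after a contusion, which is a blunt blow to the cord. The other group of 3 arrays held the same position in animals without injury. Titles and descriptions give no strain, age, sex, genotype, drug or sham operation for either group, and no day for the uninjured animals, so effects of surgery and elapsed time cannot be told apart from those of contusion. Nor do they state that each array is 1 animal. The p-values therefore rest on the scatter among 6 arrays, part of which may be technical.

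Myelin is a membrane that glia wrap around axons in many layers, made by oligodendrocytes in the central nervous system and by Schwann cells in peripheral nerve. Most layers are pressed together into compact myelin, held at their inner faces by basic proteins, while the layer next to the axon and the outermost layer carry other proteins. Loss and partial renewal of myelin are known features of the contused cord.

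Mog and Mobp fell after contusion in each of their 6 probe sets, by 1.45-fold to 2.29-fold, while Mbp, the myelin basic protein gene, did not pass the test (log2 change 0.00, SE 0.11). Cnp and Mal did not pass either, and of the 3 probe sets of Mag 1 was lower, by 1.28-fold. Pmp22, the peripheral myelin protein gene, read higher on all 3 contused arrays, by 1.32-fold in the mean, just short of the threshold (adjusted p = 0.0507 in limma). In a test of the difference on the same arrays, both probe sets of Mog and 3 of the 4 of Mobp were lower relative to Mbp. Only those of Mog and D28110_at of Mobp passed it in all 15 other settings tried, including a setting that leaves this test unchanged.

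Values below are deposited signals, an intensity on a linear scale with no counts behind it. Changes were tested in limma on log2 signals floored at 61.6, over 6705 probe sets with at least 3 arrays above that floor, with Benjamini-Hochberg adjustment over all of them and a threshold of 0.05. All myelin probe sets but 1 of Pmp22 lay above the floor on all 6 arrays and were tested. Of these 13, 7 were lower and 0 higher. Over the whole array 9.59% of tested probe sets were lower and 7.79% higher. The 2 groups did not overlap for 9 of the 13, against 34.8% of all tested probe sets. Probe sets named for 1 gene are not independent of each other. With each gene taken at its brightest probe set, 2 of 7 were lower, 0 were higher and the median log2 change was -0.12, against a median of -0.02 over 3955 genes, of which 9.91% were lower and 7% higher. In tissue RNA, fewer cells of a type and less RNA per cell cannot be told apart.

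**Figure D1:**
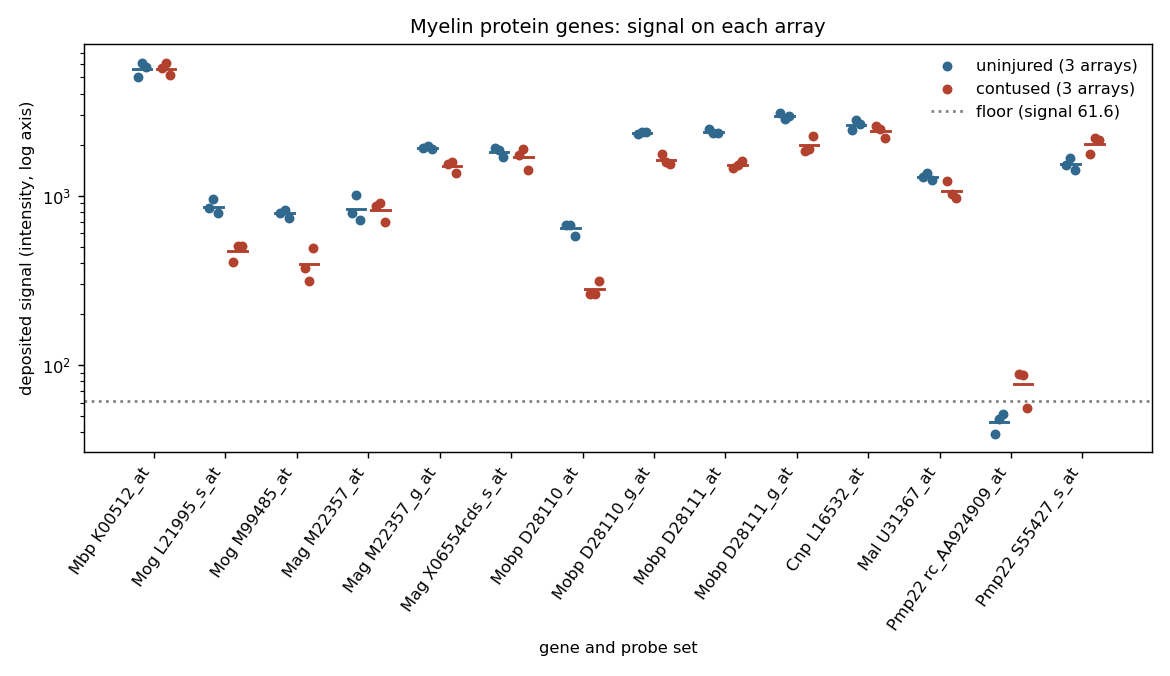
Deposited signal (log axis) of each myelin probe set on the 3 uninjured arrays (blue) and the 3 contused arrays (red), with a short line at each group's mean and a dotted line at the floor of 61.6. Groups stand apart for both Mog and all 4 Mobp probe sets, with the contused arrays below, and overlap for Mbp, Cnp and 2 of the 3 Mag probe sets.

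Mbp encodes myelin basic protein, which binds the inner faces of the membrane together and is required for compact myelin in the central nervous system. Its probe set K00512_at read 5651, 6110 and 5140 on contused arrays 1 to 3 and 5037, 6072 and 5757 on uninjured arrays 1 to 3. Both groups span nearly the same range, with the lowest value on an uninjured array. Their means were 5634 ± 485 and 5622 ± 530 (SD, n = 3 each). The log2 change of 0.00 had a 95% interval from -0.24 to 0.24 (limma, adjusted p = 0.986), and its sign differed between processing settings.

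Mobp encodes myelin-associated oligodendrocyte basic protein, a small basic protein of compact central myelin. Probe set D28110_at read 262, 264 and 312 after contusion and 667, 674 and 580 in uninjured cord. The groups do not overlap, and the contused values stand far below the uninjured ones. This was a 2.29-fold fall (log2 change -1.20, SE 0.14, limma adjusted p = 0.00029).

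The other 3 Mobp probe sets were brighter and fell less. D28110_g_at gave 1757, 1585 and 1532 after contusion against 2309, 2387 and 2373 (1.45-fold lower, limma adjusted p = 0.00611). D28111_at gave 1458, 1526 and 1593 against 2487, 2352 and 2337, a 1.57-fold fall (limma adjusted p = 0.00183). In both, every contused array was below every uninjured one. D28111_g_at gave 1828, 1880 and 2258 against 3065, 2848 and 2949, or 1.49-fold lower (limma adjusted p = 0.00635), with contused array 3 the closest to the uninjured range.

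Whether probe sets of Mobp fell by different amounts was tested on their within-array differences, along with 1548 such pairs over the array, of which 5.3% passed. The fall was 0.62 larger on the log2 scale for D28110_at than for D28111_g_at (SE 0.14, limma adjusted p = 0.0372). D28110_g_at and D28111_at differed from D28111_g_at by -0.04 and 0.07, with 95% intervals from -0.41 to 0.34 and from -0.24 to 0.39. The difference of D28110_at kept its direction in 14 of 14 other settings but passed in only 5, and in none of the 6 with 1 array left out (adjusted p = 0.0507 to 0.132). Among the 5 is the setting without an intensity trend, which repeats this test, since it uses no trend. Changing the floor, the filter, the scaling to a trimmed mean or the replicate block also left the difference at 0.62, so those settings do not bear on its direction. In a test of all 2040 pairs, added after the data were seen, 5.25% passed. There D28110_at differed from D28111_g_at (adjusted p = 0.0402), and not past the threshold from D28110_g_at (0.0565) or D28111_at (0.0648).

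RefSeq's promoter windows for assembly GRCr8 were searched on both strands over the 250 bases before the annotated start. Windows were found for 6 of the 7 measured genes, all but Mog, so among the genes whose brightest probe set fell only Mobp is described here. Motifs were chosen after the sequences were seen. Upstream of Mobp stands a run of repeats of ACAAAG, a core bound by Sox factors, on the reverse strand (CTTTGT). The window holds 8 matches, and only 2 of 33469 windows (0.00598%) hold 8 or more, while 16.3% hold at least 1. Of the other measured genes' windows, those of Mag and Cnp hold 1 match each, and so does the inner of 2 windows given for Mbp. The stretch ahead of every annotated Mobp transcript, chr8:128746982-128747116 on the plus strand, is shown because Mobp fell in all its probe sets, with 7 whole matches in capitals:
Mobp: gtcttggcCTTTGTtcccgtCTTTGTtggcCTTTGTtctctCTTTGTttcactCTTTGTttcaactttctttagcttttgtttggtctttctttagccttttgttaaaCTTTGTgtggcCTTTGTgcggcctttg

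Mal encodes a small membrane protein of myelin and lymphocytes that takes part in sorting lipids and proteins to the myelin membrane. Its probe set U31367_at read 1219, 1022 and 966 after contusion and 1282, 1358 and 1238 in uninjured cord. Contused array 1 nearly met the uninjured range, yet the groups did not overlap. The log2 change of -0.28 (SE 0.13) did not pass (limma adjusted p = 0.164), and it passed in 0 of 14 other settings.

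Cnp encodes an enzyme, the cyclic nucleotide phosphodiesterase of the cytoplasmic channels and non-compact parts of myelin. L16532_at read 2571, 2481 and 2183 after contusion and 2427, 2780 and 2636 in uninjured cord. Contused arrays 1 and 2 lay inside the uninjured range and contused array 3 below it. The log2 change was -0.12 with a 95% interval from -0.36 to 0.13 (limma adjusted p = 0.533).

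The upstream windows of Cnp, Mal and Mag each hold 1 match to CTGGCAC, a core bound by the myelin regulator Myrf, and 3.78% of all windows hold it. The windows of Mobp, Pmp22 and Mbp hold none. GGGCGG, the core of the GC box, occurs at least once in the windows of Cnp, Mal and Mbp and in 30.5% of all windows, AACAAT in the inner window of Mbp alone (10.3%), CCAAT in that of Pmp22 (34%) and TATAAA in none of these (12.9%). A match describes letters, not binding, and matches to different motifs did not share bases in the sequences printed. The windows of Cnp (chr10:86011254-86011503, plus strand) and Mal (chr3:135341424-135341673, minus strand) are shown, as genes that did not pass, for comparison with Mobp. The ACAAAG match of Cnp, 203 bases before the start, is left in lower case, and Mal has none. Capitals mark CTGGCAC, read on the opposite strand in Mal, 124 and 126 bases before the start:
Cnp: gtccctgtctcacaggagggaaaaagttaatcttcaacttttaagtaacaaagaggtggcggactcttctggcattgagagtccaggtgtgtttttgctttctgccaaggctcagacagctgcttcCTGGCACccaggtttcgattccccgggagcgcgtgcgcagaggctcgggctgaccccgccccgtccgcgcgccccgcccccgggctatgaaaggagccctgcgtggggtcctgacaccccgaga
Mal: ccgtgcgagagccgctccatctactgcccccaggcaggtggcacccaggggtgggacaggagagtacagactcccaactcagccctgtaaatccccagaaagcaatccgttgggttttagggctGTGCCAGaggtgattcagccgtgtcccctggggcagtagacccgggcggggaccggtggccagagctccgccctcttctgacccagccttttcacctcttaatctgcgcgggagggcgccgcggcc

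Mag encodes myelin-associated glycoprotein, a receptor-like protein of the innermost layer that faces the axon and can inhibit axon growth. M22357_at gave 864, 907 and 699.7 after contusion and 792, 1002 and 714 in uninjured cord, with the groups overlapping (log2 change -0.02, 95% interval from -0.37 to 0.34, limma adjusted p = 0.961). That change turned positive in 4 of 14 other settings. M22357_g_at gave 1532, 1583 and 1356 against 1905, 1951 and 1874, with no overlap, and fell 1.28-fold (log2 change -0.36, SE 0.11, limma adjusted p = 0.0473). X06554cds_s_at gave 1733, 1888 and 1426 against 1904, 1865 and 1691, again overlapping (log2 change -0.12, limma adjusted p = 0.587).

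The 3 Mag probe sets thus differed in their call. The difference between X06554cds_s_at and M22357_g_at was 0.24 with a 95% interval from -0.08 to 0.55 and did not pass (limma adjusted p = 0.374). The call of M22357_g_at was held in 3 of 14 other settings and was lost without any 1 of the 6 arrays (adjusted p = 0.0613 to 0.14).

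Mog encodes myelin oligodendrocyte glycoprotein, an immunoglobulin-like protein on the outermost surface of central myelin and a known target of autoimmunity. L21995_s_at read 406, 502 and 506 after contusion and 841, 950 and 786 in uninjured cord. M99485_at read 376, 314 and 489 against 795, 827 and 743. In neither probe set did any contused array reach the lowest uninjured one. The falls were 1.83-fold (log2 change -0.87, SE 0.14) and 2.04-fold (log2 change -1.03, SE 0.17), with limma adjusted p-values of 0.00206 and 0.00205, and did not differ from each other past the threshold (difference 0.16, 95% interval from -0.26 to 0.58).

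Pmp22 encodes peripheral myelin protein 22, a membrane protein of compact peripheral myelin that fibroblasts and other cells also make. S55427_s_at read 1766, 2195 and 2123 after contusion and 1518, 1663 and 1423 in uninjured cord. Every contused array was above every uninjured one, with contused array 1 close to the highest of them. The log2 change of 0.40 (SE 0.12, 95% interval from 0.12 to 0.67) had a limma adjusted p of 0.0507. In 14 other settings it was positive throughout and passed in 6.

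The second Pmp22 probe set, rc_AA924909_at, was dim. It read 88.6, 87.1 and 55.7 after contusion and 39.3, 48.1 and 51.4 in uninjured cord. It lay above the floor on 2 contused arrays and on 0 uninjured arrays, so it was not tested. Its groups did not overlap.

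**Figure D2:**
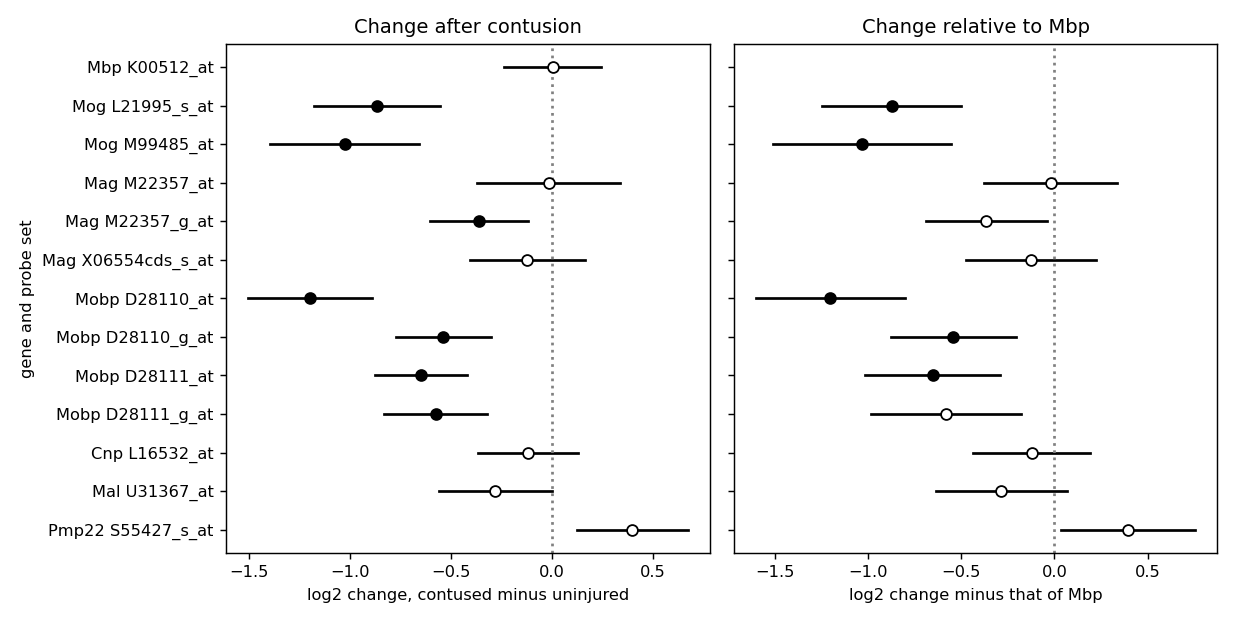
Left, log2 change of each tested myelin probe set (contused minus uninjured) with its 95% interval from limma. Right, the same after subtracting the Mbp value on each array. Filled points passed an adjusted p of 0.05, and Mog and D28110_at of Mobp lie farthest to the left in both panels.

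A gene that passed and one that did not may still not differ. Each probe set was therefore tested against Mbp by the difference of log2 signals on each array, over all 6704 other tested probe sets, of which 7.17% were lower relative to Mbp. Mbp read close to the brightest probe set of each uninjured array (5879, 6447 and 6358 on arrays 1 to 3) and further below that of the contused arrays (9135, 9008 and 7412). Whether its response was compressed there was not tested. Of 12 myelin probe sets, 5 passed, all lower. Relative to Mbp, Mog was lower by 0.87 for L21995_s_at (SE 0.17, limma adjusted p = 0.00656) and by 1.03 for M99485_at (SE 0.22, adjusted p = 0.0107). For Mobp, D28110_at was lower by 1.20 (SE 0.18, limma adjusted p = 0.00167). These 3 passed in all 15 other settings, also with Cnp in place of Mbp, an alternative added after the data were seen. Not all of these settings could change the result. Dropping the intensity trend repeats this test, which uses none, and scaling each array left the 3 differences unchanged.

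D28110_g_at and D28111_at of Mobp passed at adjusted p-values of 0.0402 and 0.0252 in limma, and D28111_g_at did not (0.0641). The calls of the first pair were lost with Cnp as the reference (0.0713 and 0.0515), and the count of 5 became 3 without contused array 1 or 2 or uninjured array 1 or 3. Mal, Cnp and the Mag probe sets did not pass. Their differences from Mbp were -0.28 for Mal (95% interval from -0.64 to 0.07), -0.12 for Cnp (from -0.44 to 0.19) and between -0.36 and -0.02 for Mag, the last of which turned positive in 5 of 15 other settings. The difference for Pmp22 was 0.39 (95% interval from 0.03 to 0.76, limma adjusted p = 0.158).

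**Figure D3:**
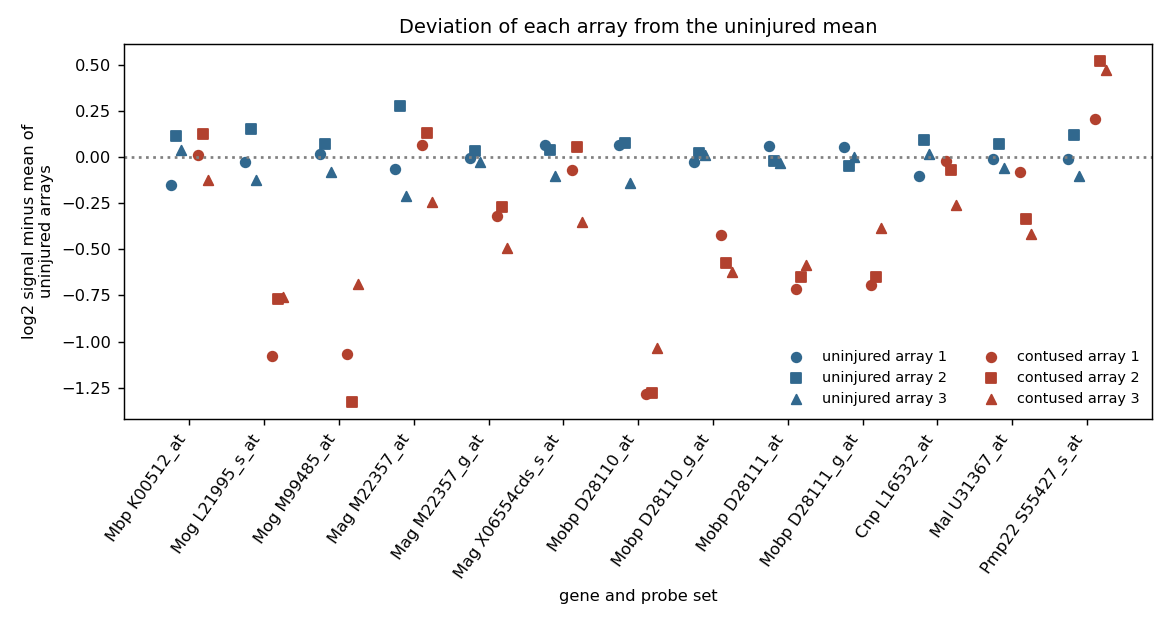
Log2 signal of each array minus the mean of the 3 uninjured arrays, for the 13 tested myelin probe sets, with marker shapes for arrays 1 to 3 of each group. Contused array 3 (red triangles) is the lowest contused array for Mbp, Cnp, Mal and all 3 Mag probe sets, and not for Mog.

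Contused arrays did not keep 1 order across myelin genes. Array 3 was the lowest contused array in 7 of 13 probe sets, among them those of Mbp, Mag, Cnp and Mal, and the highest in 5, which were both of Mog and 3 of Mobp. Contused array 1 was lowest in 5 and array 2 in 1. The largest relative spread within a group among tested probe sets was 22.7% (SD over mean) for M99485_at of Mog after contusion, and the smallest was 1.76% for D28110_g_at of Mobp in uninjured cord.

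Of 28 listed genes for other proteins of myelin and its junctions with the axon, 12 were tested, with 0 higher, 2 lower and a median log2 change of -0.16. That is near the share over all 3955 genes, of which 9.91% were lower. Cntnap1, the neuronal protein that anchors myelin loops beside the node, fell from 345 ± 16.1 to 194 ± 22.5 (SD, n = 3; limma adjusted p = 0.00284). Gjb1, the gap junction protein connexin 32 of oligodendrocytes and Schwann cells, fell from 714 ± 57.6 to 409 ± 54.3 (limma adjusted p = 0.00326). With quantile normalization 1 gene of this list was higher.

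Of 14 tested genes for oligodendrocyte enzymes and transcription factors, 4 were lower, 1 was higher and the median log2 change was -0.27, against 9.91% lower and 7% higher over all genes. Ugt8, which makes galactosylceramide, the main glycolipid of myelin, fell 1.96-fold, from 1382 ± 178 to 719 ± 191. Enpp2 (autotaxin) fell 1.59-fold and Qdpr, which regenerates tetrahydrobiopterin, 1.63-fold. Sgk1, a hormone-induced kinase found in many cell types, rose 2.83-fold, from 166 ± 18 to 470 ± 50.9. Without the filter on dim probe sets 2 genes of this list were lower. Over the whole array the number of lower probe sets also fell there, from 643 of 6705 to 396 of 8740.

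Genes for the synthesis of membrane sterols and fatty acids and its regulation, which myelin draws on, included 13 lower and 0 higher among 16 tested, with a median log2 change of -1.18. Over all genes 9.91% were lower and 7% higher. This list, like the others, was chosen with earlier results of these data known. Scd, which desaturates fatty acids, Acat2, which joins acetyl-CoA units, and Sqle, which oxidises squalene, had the smallest p and fell 6.01-fold, 3.58-fold and 4.02-fold.

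**Figure D4:**
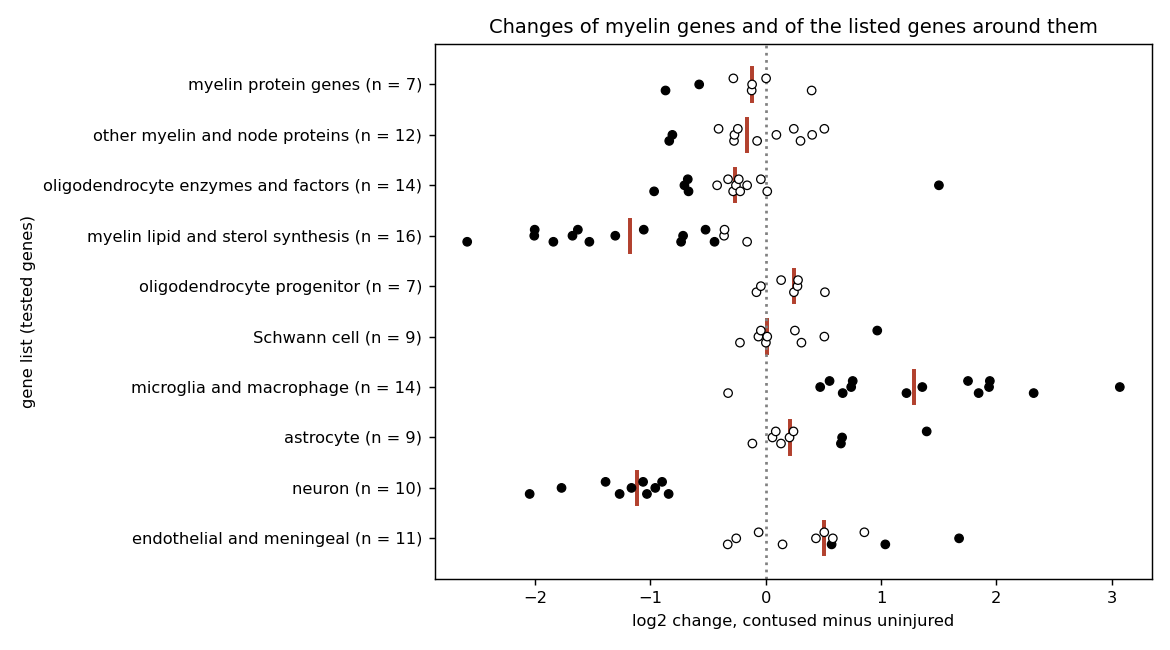
Log2 change of each tested gene (contused minus uninjured) in the 7 measured myelin protein genes and the lists around them, each gene at its brightest probe set. Filled points passed an adjusted p of 0.05 in limma and red lines mark medians, which lie at -0.12 for the myelin protein genes, -1.18 for lipid and sterol synthesis and 1.29 for microglia and macrophages.

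Markers of other cell types differed between the same samples. Over all genes 7% were higher and 9.91% lower. Of 14 tested microglia and macrophage markers 13 were higher and 0 lower, and their summed signal was 12356 to 13077 after contusion against 4471 to 5495. The marker that did not pass was Csf1r, a receptor gene, which read lower in the mean (log2 change -0.33, limma adjusted p = 0.175). Lgals3, a lectin of activated macrophages, the IgG receptor gene Fcgr2b and the complement gene C1qb had the smallest p. Lgals3 rose 8.4-fold and C1qb 3.85-fold, and Fcgr2b was at least 5.01-fold higher, its uninjured arrays all lying at the floor. Fcgr2b and Itgam, both among the 13, lay above the floor on 3 contused and 0 uninjured arrays. They were tested only through the group where they read high, so their p-values rest on uninjured values set to the floor. The count was 8 without contused array 2. Fcgr2b was no longer tested when any 1 of the contused arrays was left out. All 10 tested neuron markers were lower (1 more on the array lay under the floor on all 6 arrays), with summed signals of 7525 to 8223 against 15794 to 18289. Thy1, a surface protein of neurons, Dnm1 of synaptic vesicle recycling and the calcium sensor Vsnl1 led them, with falls of 3.41-fold, 2.41-fold and 4.13-fold. Their part in the falls of Mog and Mobp was not tested.

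Beside the value of Pmp22, 1 of 9 tested Schwann cell markers was higher and 0 lower, near the 7% of all genes that were higher. This was Scn7a, a sodium channel-like protein, at 332 ± 63 against 168 ± 5.5 (limma adjusted p = 0.00236). The summed signal of the list was 7324 to 8733 after contusion against 7241 to 7525. The count was 2 with quantile normalization and without contused array 3 or uninjured array 2. Of 11 endothelial and meningeal markers 3 were higher, the collagen genes Col3a1 (3.2-fold) and Col1a2 (2.05-fold) and Igfbp2, an IGF-binding protein (1.49-fold), and 0 lower. Over all genes 7% were higher and 9.91% lower. Flt1, Kdr, Vwf and Pecam1, the endothelial genes of this list, did not pass (log2 change -0.33, -0.26, -0.06 and 0.15). Col3a1 read 583, 685 and 152 on uninjured arrays 1 to 3, and without array 3 it was 1.99-fold higher. That array also read lowest for Col1a2 (509, 632 and 293), Lum (221, 267 and 107) and Dcn (1175, 1340 and 543), the last 2 being matrix proteoglycans singled out after their values were seen. Without contused array 2 or 3 Col3a1 did not pass (limma adjusted p = 0.0759 and 0.0632), nor did Igfbp2 without uninjured array 3 (0.0804). Their summed signal was 6831 to 8813 against 3598 to 6377, and without the filter on dim probe sets 1 was higher. The part of either list in the value of Pmp22 was not tested.

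Of 9 tested astrocyte markers 3 were higher and 0 lower, with summed signals of 14968 to 15725 against 12468 to 13575. Over all genes 7% were higher and 9.91% lower. The 3 astrocyte markers were the intermediate filament gene Vim (2.63-fold), Fabp7 of radial glia (1.57-fold) and the gap junction gene Gja1 (1.58-fold). With 1 array left out, Fabp7 lost its call without contused array 2 or uninjured array 2 or 3 (limma adjusted p up to 0.0796) and Gja1 without contused array 2 or 3 or uninjured array 1 or 3 (up to 0.137). The count was 1 without contused array 2 or uninjured array 3, and 0 without the filter on dim probe sets. Of 7 tested markers of oligodendrocyte progenitors 0 passed in either direction in limma, while 1 was higher and 0 were lower before adjustment (p of 0.05), with summed signals of 2222 to 2324 against 1927 to 2208. Bcan, a proteoglycan, and Sox10, a glial transcription factor, were the brightest, and their log2 changes were 0.13 and -0.04. Without uninjured array 1, 1 was higher.

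For Mog and Mobp, the members whose brightest probe set passed, the 3 named genes with the most similar log2 signals over the 6 arrays were listed by Pearson's r, as a description. Closest to Mog were Prune2 (r = 0.992), Ivns1abp (0.991) and Dut (0.989), of which Dut makes dUMP from dUTP. Closest to Mobp were Plcl1 (0.996), Psmc5, a proteasome subunit (0.994), and Ndufb8 of respiratory complex I (0.994). The arrays share the difference between the groups, which sets much of any such r.

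Arrays were alike in level. The median signal was 122 to 127, and the share of probe sets above the floor was 73.1% to 76%. Log2 signals correlated at 0.958 to 0.977 within a group and at 0.91 to 0.932 between groups. As a sign of RNA integrity, the signal at the 3' end of GAPDH was 1.08 to 1.12 times that at its 5' end on contused arrays, against 1.13 to 1.17 times on uninjured arrays. For beta-actin it was 1.11 to 1.24 times against 1.03 to 1.28.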

How the data were processed

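One-colour oligonucleotide arrays measured total RNA of 6 samples, 3 contused and 3 uninjured, grouped by their titles. The deposited table gives 1 intensity per probe set and array, a linear scale judged from the values themselves; the sources used here do not say how the authors subtracted background, summarised probes or scaled arrays. The table held 0 columns of other samples. The number of arrays limits the precision.

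Of 8799 probe sets, 59 controls were left out. The annotation gave the other 8740 1 gene in 7006 cases, several in 308 and none in 1426. Symbols were taken from RefSeq (GRCr8) by gene identifier for 6985 probe sets, whether or not they differed from the annotation, and kept as annotated for 21. Signals were floored at the pooled 25th percentile and taken to log2. Changes were tested across all 6705 probe sets with limma 3.58.1 in R 4.3.3 (lmFit, eBayes with an intensity trend; no trend for within-array differences), two-sided, with no covariates and 4 residual degrees of freedom. The 95% intervals are limma's and are not adjusted. The smallest p of an exact permutation test here is 0.1, and none was run. List genes stand as their brightest tested probe set. Named beside the myelin genes are, per list, up to 3 risen and 3 fallen genes with the smallest p, or the 2 brightest where none passed. Probe set names ending in _s_at or _g_at mark, in this array family, sets that can also match related transcripts. The procedure was tested on simulated data. Python 3.11.15 with matplotlib 3.10.9 and pandas 2.3.3 drew the figures.

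The members and lists were chosen with earlier results of these data known. Alternatives changed the floor, the filter, the normalization, the trend and the replicate block, and left out each array in turn.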

Additional observations from a re-analysis of the deposited data

How the results depend on the processing

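Of 31 tested changes and differences of myelin probe sets, 25 kept their side of the threshold under every alternative run. The number that changed sign while past the threshold in the main run or the alternative was 0. Some that passed in neither did change sign, such as the changes of Mbp and of M22357_at of Mag. For the differences, the alternative without an intensity trend repeats the main test. All 6 probe sets of Mog and Mobp stayed lower and past the threshold in 14 of 14 (adjusted p up to 0.0403). The 6 exceptions were M22357_g_at of Mag, S55427_s_at of Pmp22, the difference between 2 Mobp probe sets, and 3 Mobp probe sets relative to Mbp. The count of all probe sets past the threshold was 1165 and became 662 without the filter on dim probe sets, where 8740 probe sets were tested, and 659 to 1241 with 1 array left out. Myelin probe sets past the threshold numbered 6 to 7 with 1 array left out. Pairs of probe sets of 1 gene numbered 82, then 42 with the floor at the 50th percentile, 53 with no floor and 28 to 109 with 1 array left out. Myelin probe sets that differed from Mbp numbered 5, then 3 with no floor, with quantile normalization, with the replicate block or with Cnp as the reference, and 3 to 6 with 1 array left out. Among other myelin proteins 1 gene was higher with quantile normalization and 0 to 1 with 1 array left out, and among oligodendrocyte genes 2 were lower without the filter and 3 to 4 with 1 array left out. The cause of these shifts was not tested.

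Whether the replicate numbers pair the arrays cannot be decided from so few correlations. Deviations from the group means correlated at 0.04, 0.22 and -0.24 for numbers 1 to 3, and 1 of 3 contused arrays correlated best with its own number. With the replicate block 1200 probe sets passed in all, 7 of them myelin probe sets. Among the myelin probe sets, signals near the floor limit only the dim one of Pmp22.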
